A study of Mus musculus with 2 samples.

Results

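The fibrillin and elastic microfibril genes were read here in the webbed-digit mouse mutant Hammer toe and in wild type. They were chosen by name: 10 genes were listed, and every probe set that GEO's platform annotation gives to exactly 1 of them was taken. A probe set is a group of short oligonucleotides that together read 1 transcript. The annotation gave 19 such probe sets to 9 of the 10 genes, out of 34945 probe sets and 18193 genes in all. The 9 genes are Fbn2, Eln, Fbln2, Fbln5, Mfap2, Mfap4, Mfap5, Ltbp1 and Lox. No probe set was annotated to Fbn1 alone, so Fbn1 was not analysed here. The wild-type array held B6 hind limb interdigit tissue at E13.5 (embryonic day). The Hammer toe array held the same tissue at the same stage from embryos homozygous for Hammer toe. Per the labels, interdigits ID2 and ID3 were dissected. The series' design gives 3 sets of 5 littermates, 15 embryos per genotype, and does not say how they relate to the deposited arrays, of which there was 1 per genotype. B6 is named for the wild type only, so strain and genotype cannot be told apart, and neither can differences between litters.

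Fibrillins are large secreted glycoproteins that join end to end into microfibrils, the thin extracellular filaments found in most connective tissues. Elastin is laid onto this scaffold and crosslinked by lysyl oxidase to make elastic fibres, while fibulins and microfibril-associated glycoproteins bind along it. Microfibrils also hold growth factors of the TGF-beta and BMP families in the matrix, partly through the latent TGF-beta binding proteins. Loss of Fbn2 in mice gives fused digits, which makes these genes of interest in a mutant with webbed digits.

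The microfibril genes read nearly the same on both arrays. Of the 19 probe sets, 12 were above the floor, an intensity of 78.1 below which values were treated as noise, and all 12 were above it on both arrays. None of the 12 differed by 1.5-fold, against a background of 3.9% of all 20995 measured probe sets that each name 1 gene. The 12 covered 8 genes, and none of the 8 passed 1.5-fold on its brightest probe set, against 3.56% of 11621 measured genes. By that probe set 4 genes read higher in Hammer toe and 4 lower, and 6 of the 8 lay within 1.1-fold, as did 55.7% of all measured genes. Of the 12 probe sets 7 lay within 1.1-fold, beside 52.7% of all measured probe sets. Without matching for intensity, the group thus stood about as near to wild type as other genes. The exceptions among the 8 genes were Lox, higher in Hammer toe, and Mfap4, lower. Taking log2 of Hammer toe over wild type, the median of the 8 was 0.03, beside 0.01 for all measured genes. With 1 array per genotype there is no replicate spread and no test, so these values describe 2 arrays. In whole tissue, fewer cells that make a transcript and less transcript per cell cannot be told apart.

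**Figure D1:**
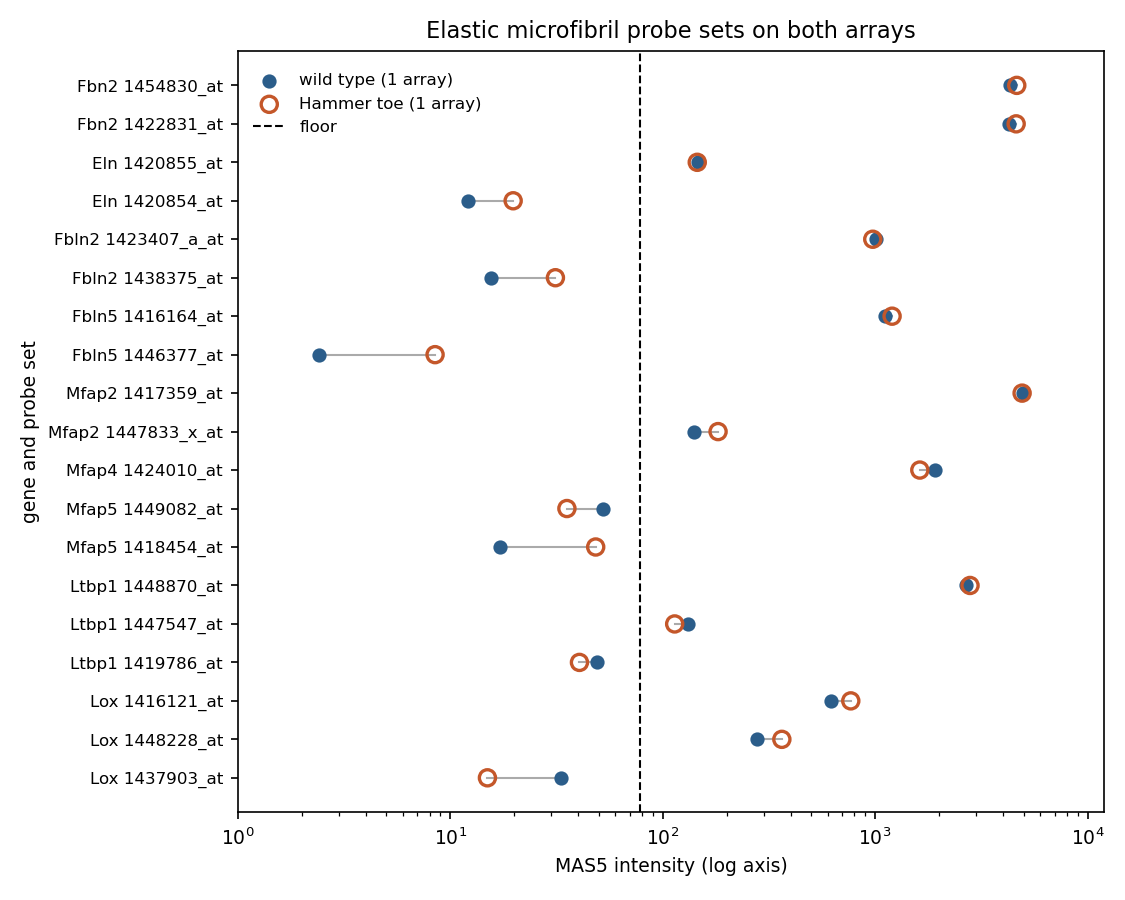
Intensity (MAS5 units, log axis) of each of the 19 probe sets on the wild-type array (filled) and the Hammer toe array (open), with the floor of 78.1 as a dashed line. The 12 probe sets right of the floor have nearly overlapping symbols, while the 7 left of it scatter in both directions.

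Fbn2, the fibrillin that is made mainly in embryonic tissue, was slightly brighter in Hammer toe on both of its probe sets. The first read 4300 on the wild-type array and 4642 on the Hammer toe array, 1.08-fold brighter in the mutant. The other read 4283 and 4612, which is also 1.08-fold. The log2 ratios of the pair, 0.11 and 0.11, lay 0.0037 apart. The SD between probe sets of 1 gene was 0.21 (log2) over 5134 genes, but it pools dim and bright probe sets above the floor. Both Fbn2 probe sets read the same arrays, so their likeness does not replicate the difference. A difference of this size was common among bright probe sets: 38.7% and 40.1% of the 6800 measured probe sets whose brighter array read over 1000 were at least as far from wild type. Fbn2 was read far above the floor on both arrays.

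Among the microfibril-associated glycoproteins, Mfap2 read alike on both arrays on its bright probe set and Mfap4 was lower in Hammer toe. Mfap2 encodes MAGP-1, a small glycoprotein that is part of most microfibrils. Its bright probe set read 4966 in wild type against 4919 in Hammer toe, a log2 ratio of -0.01, and 91% of probe sets over 1000 were at least as far apart. Its dim probe set read 140 and 182, or 1.30-fold higher. The dim one is of the _x_at type, which can bind related transcripts, and 24.1% of the 5124 measured probe sets up to 200 were at least as far apart. The pair differed by 0.39 on the log2 scale, the widest gap between measured probe sets of any gene listed.

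Mfap4 encodes a fibrinogen-related glycoprotein that binds elastin and fibrillin. Its only probe set read 1922 in wild type against 1624 in Hammer toe, 1.18-fold lower. This log2 ratio of -0.24 was the largest difference among the 7 listed probe sets over 1000. At that intensity 95% of all probe sets lay within 0.32 on the log2 scale, and 9.75% were at least as far apart as Mfap4.

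Mfap5 encodes MAGP-2, which is related to MAGP-1. It was under the floor on both arrays on both probe sets. The brighter read 52.6 in wild type against 35.5 in Hammer toe, and the dimmer 17.2 against 48.4. The pair pointed in opposite directions although the annotation cites the same transcript record for both, and no ratio is given for Mfap5.

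Elastin and the fibulins showed little difference. Eln encodes tropoelastin, the soluble precursor of elastin. Its brighter probe set read 146 on both arrays, a log2 ratio of -0.01, and its other probe set was under the floor, at 12.1 on the wild-type and 19.8 on the Hammer toe array. Both Eln probe sets cite the same transcript record.

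Fbln5 encodes fibulin-5, which is needed for elastic fibre assembly. Its measured probe set read 1108 in wild type against 1202 in the mutant, 1.08-fold higher, and 36.2% of probe sets over 1000 were at least as far apart. Fbln2 encodes fibulin-2, a fibulin found at microfibrils and basement membranes. Its measured probe set, of the _a_at type, which can read several transcripts of a gene, read 1012 and 975, 1.04-fold lower, and 66.7% were at least as far apart. The second probe sets of both genes were under the floor, at 2.41 and 8.50 for Fbln5 and at 15.6 and 31.3 for Fbln2.

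Ltbp1 encodes a latent TGF-beta binding protein, which holds the latent growth factor and ties it to the matrix. Its measured probe sets had opposite signs. The brighter read 2674 in wild type against 2797 in the mutant, 1.05-fold higher. The dimmer read 132 and 114, 1.15-fold lower, which 50.3% of probe sets up to 200 matched or passed. The remaining probe set was under the floor, at 49.1 and 40.6. Ltbp1 is transcribed from alternative starts, and RefSeq gives 2 of them, 173252 bases apart. Which start each probe set reads is not known here, so the 250 bases upstream of each start are shown only to set the starts of this gene side by side. Both are from GRCm38.p6, plus strand, 5′ to 3′, at chr17:75005279-75005528 and chr17:75178531-75178780. Capitals mark the letters CAGAC on either strand (GTCTG where reversed), the core of a site that SMAD proteins of the TGF-beta pathway can bind.
Ltbp1 upstream start: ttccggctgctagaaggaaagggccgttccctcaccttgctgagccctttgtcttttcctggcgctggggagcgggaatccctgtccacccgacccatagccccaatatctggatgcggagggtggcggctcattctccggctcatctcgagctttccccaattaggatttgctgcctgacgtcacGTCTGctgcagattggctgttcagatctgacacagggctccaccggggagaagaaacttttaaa
Ltbp1 downstream start: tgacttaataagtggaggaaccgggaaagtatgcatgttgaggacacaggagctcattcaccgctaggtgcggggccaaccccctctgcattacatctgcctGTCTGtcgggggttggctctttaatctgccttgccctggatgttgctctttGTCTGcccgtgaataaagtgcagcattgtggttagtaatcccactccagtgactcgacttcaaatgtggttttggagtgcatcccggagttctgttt

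The upstream window held CAGAC once and the downstream window held it at 2 places, and 56.8% and 50.8% of their bases were G or C. RefSeq's table had start windows for 5 of the 10 listed genes (Fbn1, Fbln2, Fbln5, Ltbp1 and Mfap2), 8 windows in all. CAGAC on either strand was in 4 of the 8, beside 42.2% of 32851 windows of the same length. The GC box GGGCGG was in 4 of the 8, beside 32.7% of all windows. The Gli site GACCACCCA, searched because hedgehog signalling patterns the digits, was in none of the 8 and in 0.225% of all windows. A match is a run of letters and not a known binding site.

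Lox, the enzyme that crosslinks elastin and collagen, had the largest difference of the listed genes and was higher in Hammer toe. The brightest of its 3 probe sets read 622 in wild type against 768 in the mutant, 1.24-fold higher. The next read 279 and 364, 1.30-fold higher. Both cite the same transcript record, so their likeness is not independent. Of the 9071 measured probe sets between 200 and 1000, 19.3% were at least as far apart as the first and 12.5% as the second, and 95% lay within 1.45-fold. The last probe set was under the floor and pointed the other way, at 33.4 and 15.0.

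Without matching for intensity, the ratios across the group stayed about as close to wild type as those of probe sets in general. The median distance from no difference was 0.11 on the log2 scale over the 12 measured probe sets and 0.13 over all 20995. Of the 12, 7 read over 1000, where probe sets varied less. The median difference of all probe sets was 1.06-fold over 1000 and 1.16-fold up to 200, so the pooled medians do not compare like with like. Of the 12, 2 were at least 25% brighter on the Hammer toe array, 1 of Lox and 1 of Mfap2, beside 9.07% of all measured probe sets, and none was brighter by as much in wild type. In either direction, 16.8% of all measured probe sets were that far apart. No listed probe set lay beyond the range that held 95% of probe sets at its own intensity, which was a log2 ratio of 0.67 up to 200, 0.53 from 200 to 1000 and 0.32 over 1000. The spiked hybridisation controls, 18 probe sets for RNA added in equal amounts, had log2 ratios with an SD of 0.06. Neither that SD nor the disagreement between probe sets includes the variation between embryos.

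**Figure D2:**
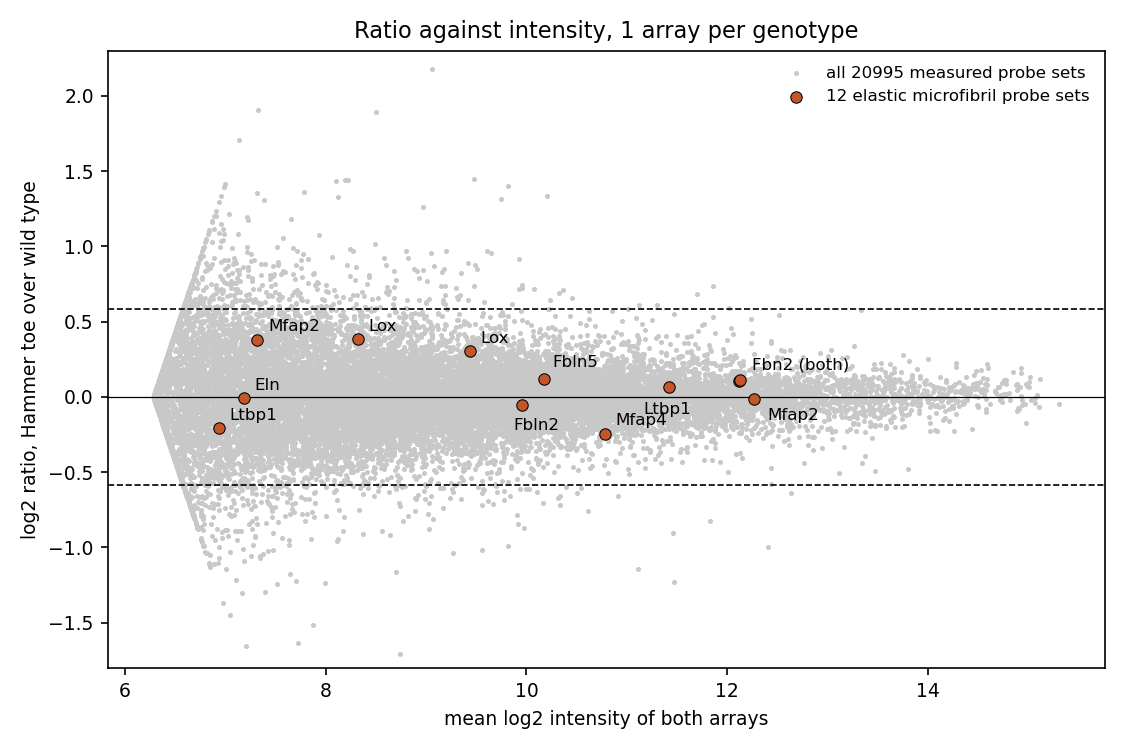
The log2 ratio of Hammer toe over wild type (vertical axis) against the mean log2 intensity of both arrays (horizontal axis), for all 20995 measured probe sets that name 1 gene (grey) and the 12 listed ones (orange); dashed lines mark 1.5-fold. All 12 lie between the dashed lines and inside the grey cloud, with Lox and the dim Mfap2 probe set highest and Mfap4 lowest.

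The wider microfibril pathway was read through 8 lists of partner genes, 78 genes in all, of which 55 were measured. On the brightest probe set, only Postn passed 1.5-fold, which is 1.82% of the 55 beside the background of 3.56%. Of the 55, 30 read higher in Hammer toe and 25 lower, with a median log2 ratio of 0.01. A dimmer probe set passed 1.5-fold for Clu (clusterin, an extracellular chaperone), at 0.99 against -0.16 on its brightest, and for Itgb1, an integrin chain, at -0.59 against -0.11. Postn encodes periostin, a matrix protein that helps Bmp1 activate lysyl oxidase. It read 547 in wild type against 853 in the mutant on its 1 measured probe set, 1.56-fold higher. The other measured lysyl oxidase genes were nearer to wild type than Lox: Loxl1 and Loxl3 had log2 ratios of 0.04 and -0.14, and Loxl4 was under the floor. Bmp1, the protease that cleaves the lysyl oxidase precursor, had -0.07 on its brightest probe set and -0.42 on its other measured one. Pcolce, an enhancer of that protease, had 0.00 on its brightest. In this list of 6 measured genes the median was 0.02.

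Ligands and binding proteins of latent TGF-beta were close to wild type, with a median log2 ratio of 0.02 over 6 measured genes. On the brightest probe set, Ltbp4, a binding protein required in elastic fibre assembly, had the largest difference, from 245 to 215, 1.14-fold lower. Tgfb1, Tgfb2 and Tgfb3, the ligands themselves, had log2 ratios of 0.01, 0.05 and 0.03 on theirs. The 4 measured probe sets of Tgfb2 ranged from 0.05 to 0.20, and the 4 of Ltbp3 from -0.06 to 0.19. Ltbp2 was under the floor on both arrays.

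Assembly and scaffold genes differed more from one another than as groups. In the list of fibulins, emilins and other assembly genes, 8 of 10 measured genes read lower, with a median of -0.08. Emilin2, an elastin-microfibril interface glycoprotein, stood against this: it read 726 and 998, 1.37-fold higher. Emilin1 and Emilin3 had log2 ratios of -0.17 and -0.16. In the list of proteins that bind microfibrils, 5 of 8 read higher, with a median of 0.08. The largest difference there was that of Mfap3l, a membrane protein related to Mfap3, from 239 to 187, 1.28-fold lower. Bgn, in the same list, was almost as far the other way, at 1114 and 1412, 1.27-fold higher. Its log2 ratio of 0.34 on this probe set lay beyond the 0.32 that held 95% of probe sets over 1000. All 3 measured Bgn probe sets read higher, the lowest at 0.17.

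Of the 8 partner lists, that of ADAMTS proteases and ADAMTS-like proteins had the highest median, 0.21 over 6 measured genes, all but Adamts10 and Thsd4 reading higher. Among the higher genes, Adamtsl1 had 0.51 on its brightest probe set, while its other measured ones pointed lower, at -0.03 and -0.23. Adamtsl3 read 86.8 and 129, 1.49-fold higher, at an intensity where 95% of probe sets lay within 1.59-fold. Thsd4, which promotes fibrillin assembly, had a log2 ratio of -0.17. Of the other 5 genes in this list, 4 were under the floor on both arrays.

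Processing enzymes, receptors and proteases completed the pathway. Furin, which cleaves fibrillin precursors, had a log2 ratio of 0.00, and Pcsk5, a related convertase, read 522 and 660, 1.26-fold higher, with a second probe set at -0.18. Among the integrins that bind fibrillin, 5 of 7 measured genes read lower on the brightest probe set, with a median of -0.09. Itga5 was furthest there, from 150 to 135, 1.11-fold lower. Itgav, Itga8 and Itgb1, among those lower, each had another measured probe set that read higher, up to 0.29, 0.17 and 0.34. Among proteases that can degrade elastin, 4 of 5 measured genes read higher with a median of 0.08, and Ctsk, a cysteine protease, was furthest, from 188 to 241, 1.28-fold higher. Mmp7, Mmp9, Mmp12 and Elane were under the floor on both arrays.

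**Figure D3:**
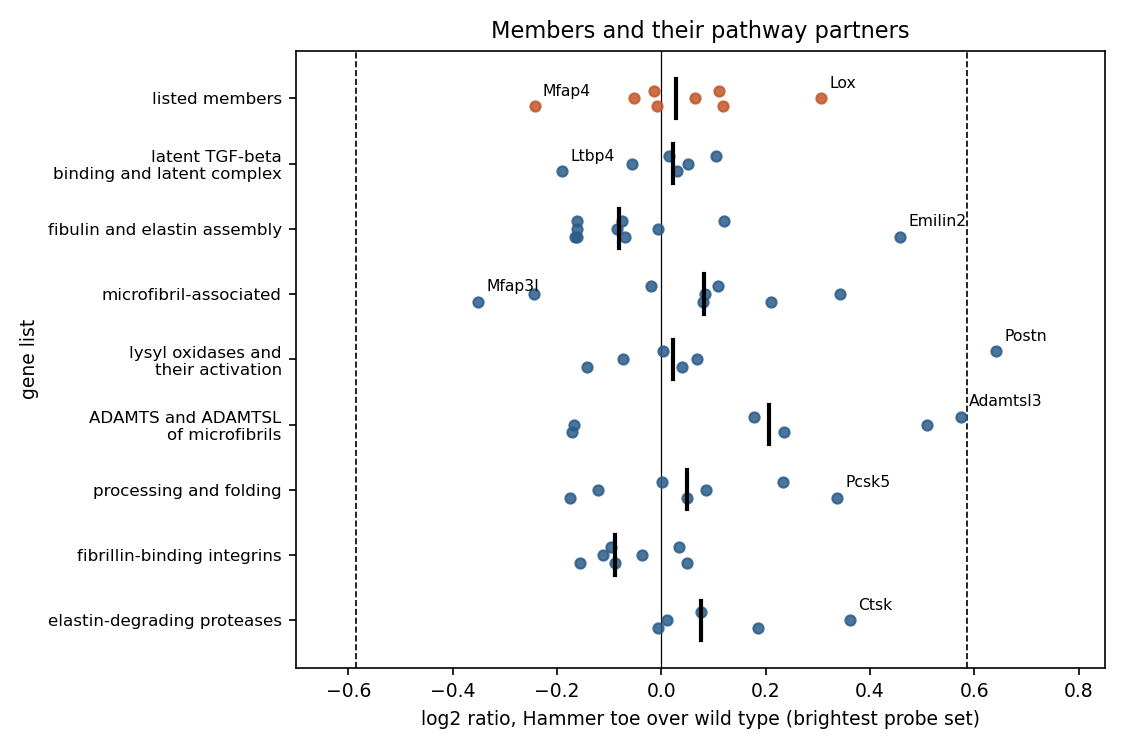
The log2 ratio of Hammer toe over wild type (horizontal axis) for each measured gene of the listed members (orange) and the 8 partner lists (blue), on the gene's brightest probe set; black bars are list medians and dashed lines mark 1.5-fold. Postn alone passes a dashed line, and the listed members lie between -0.24 for Mfap4 and 0.31 for Lox.

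The labelled tissue was checked on markers, and lists for other cell types that the dissected tissue could hold were read beside the results. All 10 interdigit mesenchyme genes were measured, of which 4 read higher and 6 lower, and their intensities summed to 66788 in wild type against 63154 in the mutant. The T-box transcription factor genes Tbx3 and Tbx2 were past 1.5-fold, 1.74-fold and 1.63-fold higher, and Rdh10, an enzyme of retinoic acid synthesis, was 1.46-fold higher. On the brightest probe set, markers of perichondrium and fibrous connective tissue were higher in 9 of 9 measured genes, 4 of them past 1.5-fold. Among all genes 2.17% were that far higher. The sum of the list was 27804 in wild type and 32334 in the mutant. Col1a1, in this list, had a log2 ratio of 0.33 on its brightest probe set and -0.27 on its other measured one. Postn is also in that list, together with Ogn and Lum, matrix proteoglycan genes with log2 ratios of 1.45 and 1.40. Cartilage genes were lower in 9 of 10, 5 of them past 1.5-fold beside 1.39% of all genes, with sums of 15799 and 10169. Tendon genes were higher in 7 of 8, 4 of them past 1.5-fold, with sums of 3334 and 4065. Those 4 were Kera, Tnc, Egr1 and Chodl. The tendon genes Scx, Tnmd and Mkx were close to wild type, with log2 ratios of 0.16, 0.01 and -0.13, and Tnmd was under the floor in wild type. The part of these tissues in the Lox, Postn and Mfap4 values was not tested.

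Vascular smooth muscle, the main source of elastin in vessel walls, was read in 1 list together with pericytes, so the list does not single it out. Of 8 measured genes 3 read higher and 5 lower, and the sums were 5768 and 6017. Among the lower ones, Des was under the floor in Hammer toe. The late smooth muscle markers Myh11 and Cnn1 were under the floor on both arrays. Tagln, a gene of the contractile apparatus, read 110 and 213, 1.93-fold higher. Acta2, a smooth muscle actin gene, read 609 and 769, 1.26-fold higher, while Smtn had a log2 ratio of -0.04. Endothelial genes had a median of -0.02, with sums of 5129 and 5542. Genes of the surface ectoderm read higher in 8 of 9 on the brightest probe set, with sums of 10080 and 13074. Among the higher ones, Epcam had a log2 ratio of 0.57 there and -0.71 on its other measured probe set. Skeletal muscle genes were higher in 6 of 7 and macrophage genes in 7 of 8, 3 of each past 1.5-fold. Among all genes 2.17% were that far higher. Of the genes past that size, Myh3 and Aif1 read 84.2 and 82.7 in wild type, close to the floor of 78.1. Of all measured probe sets up to 200, 8.43% differed by 1.5-fold in either direction. The sums were 1231 and 1940 for skeletal muscle genes and 2528 and 3324 for macrophage genes. The summed intensity of the 9 microfibril genes was 16801 in wild type and 17109 in the mutant.

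**Figure D4:**
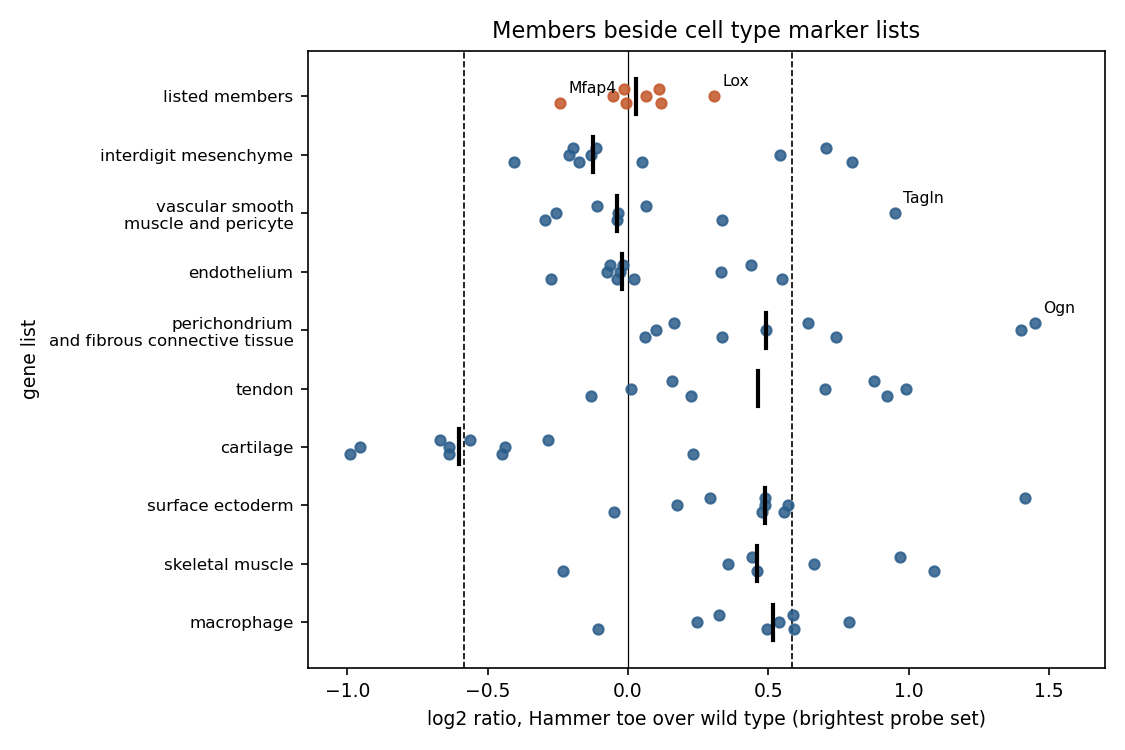
The log2 ratio of Hammer toe over wild type (horizontal axis) for each measured gene of the listed microfibril members (orange) and of marker lists for the labelled tissue and other cell types (blue); black bars are list medians and dashed lines mark 1.5-fold. The microfibril genes cluster around 0.03, while the cartilage list has a median of -0.60 and the fibrous connective tissue list one of 0.49.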

How the data were processed

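Total RNA (250 ng per sample) from 1 wild-type and 1 Hammer toe sample was read on Affymetrix arrays. The deposited values are linear intensities, 1 per probe set on each array, which the authors produced with MAS5 (run in Expression Console), per the submitters' processing notes; versions are not given in the sources used here. Both arrays had a mean of 500.003 after trimming 2% of values from either end, so a shift of most transcripts in 1 direction cannot be seen. The number of arrays limits the precision.

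Of 45101 probe sets, 64 were controls. GEO's platform annotation, with symbols updated by gene ID in the GRCm38.p6 RefSeq table, gave 1 gene to 34945, several to 932 and none to 9160. Values under the floor, the median of all non-control values (78.1), were set to it, then log2 ratios were computed. Measured means above the floor on at least 1 array. Each gene is represented by its brightest probe set, by the mean of both arrays. Calls were by size (1.5-fold), with no test. Calculations used Python 3.11.15 with pandas 2.3.3, and the script was tested on simulated data.

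Named partner genes were those past 1.5-fold or, where a list had none, the furthest; others were added after their values were seen. The members and lists were chosen with earlier results of these data known. The alternatives were 3 scalings (median centring, quantile, lowess with span 0.3), 4 treatments of low values, leaving out _x_at, _s_at and _a_at probe sets, the mean over probe sets, and sizes of 25% and 2-fold.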

Additional observations from a re-analysis of the deposited data

How the results depend on the processing

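The 12 measured probe sets kept their direction under each of the 3 scalings. The treatments of low values and the choice of probe sets cannot reverse the direction of a probe set, so they were no check of it. On the log2 scale, the brightest Lox probe set stayed between 0.28 and 0.31 and the next between 0.33 and 0.38. Mfap4 stayed at -0.24 and both Fbn2 probe sets at 0.11. The 3 scalings moved the median of all genes by less than 0.1 (log2). The count of listed probe sets past 1.5-fold, 0 as reported, was 3 with the floor at the 25th percentile and 5 with no floor, while 15.4% and 27.5% of all probe sets passed there. The 5 were all under the floor used here: the second probe sets of Eln, Fbln2 and Fbln5 and 1 of Mfap5 higher, and 1 of Lox lower. With a size of 25% the count was 2. No alternative brought a listed gene past the size on its brightest probe set. Their median log2 ratio ranged from -0.01, with the floor at the 25th percentile or none, to 0.07. Of the partner genes, 5 of 66 passed with the floor at the 25th percentile, 8 of 69 with no floor, 8 of 55 at 25% and 0 of 55 at 2-fold, beside 1 of 55 as reported. Over all genes 14.4%, 25.6%, 14.8% and 0.37% passed at those settings, so the larger counts are no result about the partner genes; these partner counts under other settings were added after the data were seen. No paired analysis was possible because each genotype has 1 array, and no array could be left out. Low signal limits Mfap5, for which no ratio can be read.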
